A study of Mus musculus with 4 samples.

Results

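*Tfap2a*, *Tfap2b*, *Tfap2c*, *Sox10*, *Pax3*, *Zic1*, *Zic4*, *Foxc1*, *Foxc2*, and *En1* encode transcription factors of the neural crest and of skull patterning. These 10 genes were picked by symbol from the 23946 symbols listed in each library, and each of the 10 was listed. Expression was measured by bulk RNA-seq in skeletal stem/progenitor cells of wild-type CD-1 mice at postnatal day 3 (pN3), with no treatment in any group. The cells were sorted for CD51 (integrin alpha V) and CD200, and against CD105, 6C3, Thy1.2, Thy1.1, Tie2, Ter119, and CD45, and are called CD51+;CD200+ cells. The PF library is of the posterior frontal suture, SAG of the sagittal, and COR of the coronal suture, each dissected as a whole complex of bone and mesenchyme, and GP is of the growth plate of the tibia. Each of the 4 tissues has 1 library, made from the cells of many mice. There is therefore no replicate error, and every difference below is a difference between libraries with no test.

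The neural crest is a migratory population that leaves the border of the neural plate and, in the head, forms bone, cartilage, and dura mater as well as glia, neurons, and pigment cells. In the mouse the frontal bone is mainly of crest origin, and the parietal bone and the mesenchyme of the COR suture are of mesoderm origin. Crest cells also form mesenchyme of the SAG suture and the dura beneath the vault, whereas the bone and cartilage of the tibia are of mesoderm origin. AP-2 factors, Pax3, and Zic1 act at the neural plate border, and Sox10 is kept in the glia and pigment cells that the crest gives rise to. Foxc1 and Foxc2 are forkhead factors of mesenchyme in the meninges, the skull vault, and the trunk and limb. En1 is an engrailed homeobox factor best known from the midbrain and hindbrain boundary and is also needed for normal growth of the vault. The PF suture closes early in postnatal life, while SAG and COR remain patent.

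Expression is given as FPKM, a fragment count scaled by the length of the transcript and by the size of the library, so levels can be set side by side between genes. At a floor of 1 FPKM, 6 of the 10 genes were measured in each of the 3 sutures and 3 in GP. Of the 10, 8 reached 5 FPKM in at least 1 library, 2 (*Foxc1* and *Foxc2*) reached 1 FPKM in every library, and 2 (*Tfap2a* and *Tfap2c*) were below 1 FPKM in all 4. Summed over the 10 genes, the level was 137 FPKM (PF), 126 (SAG), 46.8 (COR), and 47.5 (GP), of which *Foxc1* and *Foxc2* together gave 107, 63.0, 32.7, and 32.2 FPKM.

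The label of GP against the sutures was checked with marker genes. No list was of genes particular to PF, SAG, or COR, so a swap among the suture labels could not be seen. All 10 genes of a skeletal progenitor and osteoblast list were at 1 FPKM or more in every library. Their sum was lowest in SAG, at 401 FPKM, against 1292 (PF), 2030 (COR), and 681 (GP). By the 3-fold count described below, 5 of these 10 were lower in SAG than in COR, beside 3.11% of all genes. In the other direction 0 were higher, beside 6.15%. Of 8 limb identity genes, 6 were at 1 FPKM or more in GP and 0 in any suture. SAG had the highest sum in several marker lists given below, and the widest gap was in the choroid plexus list. Its 8 choroid plexus markers summed to 5394 FPKM against 153 to 535 in the others, with *Ttr* at 5100 FPKM. Its chondrocyte markers, 7 of 8 of them listed, summed to 4415 FPKM, against 2482 in GP and 124 to 125 in PF and COR. Abundant genes can be listed at 0 in these files (*Col1a1* and *Sparc* in COR and *Col1a2* in COR and GP, for example), so a 0 is reported below only as listed at 0.

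Promoter sequence was available from RefSeq for 6 of the 10 genes. The 5 promoters below belong to those at 1 FPKM or more in at least 1 library, each with its highest level in a suture (*Tfap2b* and *Foxc1* in PF, *Zic1* and *Zic4* in SAG, *En1* in COR). The bases come from the RefSeq table for GRCm38.p6 and were placed in mm9 by exact match. Each stretch begins 250 bases before the RefSeq start and ends before the first exon of the annotated coding transcript. It reads 5′ to 3′ on the gene's strand. The *Tfap2b* stretch lies in the first intron of 2 transcripts that start upstream of it. The other 4 lie outside the annotated exons of their genes' coding transcripts. Of these, the *Zic4* stretch is also within the annotated span of its gene (91257251 to 91284186). Capitals mark matches, on either strand, to a GC box, a CCAAT box, or an AP-2 palindrome. The GC box was searched as GGGCGG. The palindrome was searched as GCCNNNGGC, and the CCAAT box as its own name spells it.
Tfap2b, chr1:19201885-19202134, plus strand: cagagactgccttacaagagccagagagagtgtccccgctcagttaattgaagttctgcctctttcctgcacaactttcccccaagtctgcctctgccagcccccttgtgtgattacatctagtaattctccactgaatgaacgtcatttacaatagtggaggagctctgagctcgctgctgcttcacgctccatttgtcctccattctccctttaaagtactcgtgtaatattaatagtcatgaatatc
Foxc1, chr13:31898265-31898514, plus strand: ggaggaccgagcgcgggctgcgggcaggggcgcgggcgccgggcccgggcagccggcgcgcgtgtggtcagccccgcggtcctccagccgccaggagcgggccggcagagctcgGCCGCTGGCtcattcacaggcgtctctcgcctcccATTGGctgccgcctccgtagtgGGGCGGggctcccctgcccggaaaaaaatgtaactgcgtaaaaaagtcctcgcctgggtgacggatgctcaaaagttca
En1, chr1:122498814-122498994, plus strand: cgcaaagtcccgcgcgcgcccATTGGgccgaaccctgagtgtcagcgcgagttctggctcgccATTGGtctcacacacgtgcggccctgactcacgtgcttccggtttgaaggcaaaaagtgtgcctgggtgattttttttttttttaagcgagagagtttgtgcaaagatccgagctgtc
Zic1, chr9:91260649-91260856, minus strand: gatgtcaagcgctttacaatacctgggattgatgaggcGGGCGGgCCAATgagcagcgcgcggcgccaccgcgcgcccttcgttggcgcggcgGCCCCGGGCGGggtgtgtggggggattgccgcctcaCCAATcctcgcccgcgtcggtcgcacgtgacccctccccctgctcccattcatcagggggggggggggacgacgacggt
Zic4, chr9:91263560-91263649, plus strand: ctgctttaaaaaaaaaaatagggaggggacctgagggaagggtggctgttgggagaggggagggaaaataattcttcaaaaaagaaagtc

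Over the 250 bases before the start, the *Zic1* promoter was rich in G and C (66% GC, 27 CpG dinucleotides), with a GC box at -212 and -152 and a CCAAT box at -205 and -121. Its AP-2 palindrome at -157 overlapped the GC box at -152. The *Zic4* promoter, on the opposite strand of the same locus, was 44.4% GC with 4 CpG dinucleotides. The *En1* promoter (56% GC, 19 CpG) held 2 CCAAT boxes, at -229 and -187, both on the other strand and so printed as ATTGG. The *Foxc1* promoter had the highest GC content of the 5 (70.8%, 29 CpG) and held a GC box at -79, a CCAAT box at -101, printed as ATTGG, and an AP-2 palindrome at -136. The *Tfap2b* promoter (46.4% GC, 5 CpG) held none of these 3 motifs, and the median of 32851 promoters was 52.4% GC with 6 CpG. A GC box was found in 32.7% of those promoters, a CCAAT box in 33.8%, and an AP-2 palindrome in 13.7%, so each match is a description of letters that many promoters share.

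**Figure D1:**
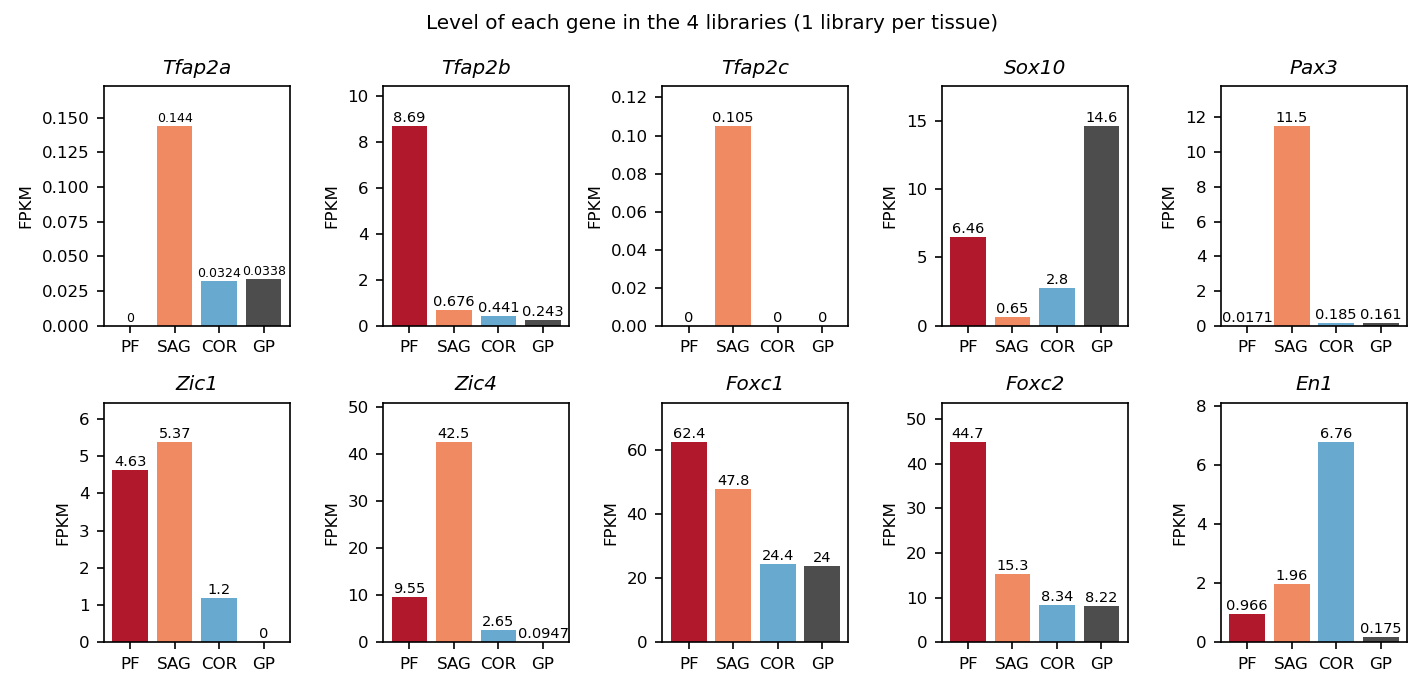
FPKM of each of the 10 genes (vertical axis, linear and on its own scale in each panel) in the PF, SAG, COR, and GP libraries, 1 bar per library with its value above it. *Foxc1* and *Foxc2* are above 8 FPKM in every library, *Pax3* is high in SAG alone at 11.5 FPKM, *En1* is highest in COR at 6.76 FPKM, and *Sox10* is highest in GP at 14.6 FPKM.

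The AP-2 genes encode factors that bind DNA as dimers and act early in crest and facial development. *Tfap2b* (mm9 chromosome 1, 19198995 to 19228815, plus strand, 7 exons) was at 8.69 FPKM (PF), 0.676 (SAG), 0.441 (COR), and 0.243 (GP). It was thus high in PF alone, with every other library below 1 FPKM. For this and every difference below, fewer cells that express a gene and less RNA per cell cannot be told apart in bulk RNA. The FPKM ratio of PF was 12.8 over SAG, 19.7 over COR, and 35.8 over GP. In log2(FPKM + 1), a scale on which low genes appear less changed than they are, the corresponding differences were 2.53, 2.75, and 2.96. *Tfap2b* was the only member of its family at 1 FPKM or more in any library. *Tfap2a* (chromosome 13, 40811044 to 40829192, minus strand) was at 0.144 FPKM (SAG), 0.0324 (COR), and 0.0338 (GP) and was listed at 0 in PF. *Tfap2c* (chromosome 2, 172375093 to 172384122, plus strand) was at 0.105 FPKM in SAG and listed at 0 elsewhere. By the estimate of depth described with the processing, *Tfap2a* in SAG rests on about 16 to 18 fragments and *Tfap2c* on about 12, whereas *Tfap2b* in PF rests on about 904 to 909. In GENCODE, 111 exonic bases of *Tfap2a* (3.42%) are shared with an antisense long noncoding RNA that is not listed in the files. Among the paralogs, *Tfap2d* was at 0.495 FPKM in SAG and *Tfap2e* at 0.265 in COR, and each was listed at 0 in the other libraries.

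*Zic1* and *Zic4* encode zinc finger factors and lie head to head on chromosome 9. *Zic1* (91252896 to 91260648, minus strand, 3 exons) was at 4.63 FPKM (PF), 5.37 (SAG), and 1.2 (COR), and was listed at 0 in GP. PF and SAG were close for *Zic1*, with a log2 difference of -0.18, and both were above COR, by 1.36 and 1.53. No FPKM ratio over GP is given for *Zic1* because GP was listed at 0, and the log2(FPKM + 1) differences of 2.49 (PF), 2.67 (SAG), and 1.14 (COR) depend on the pseudocount. *Zic4* (91257251 to 91284186, plus strand, 5 exons) was at 9.55 FPKM (PF), 42.5 (SAG), 2.65 (COR), and 0.0947 (GP). It was above GP in every suture, with log2 differences of 3.27 (PF), 5.31 (SAG), and 1.74 (COR). In log2(FPKM + 1), though not in the ratio of FPKM, *Zic4* had the widest spread of the 10 genes. The GP level of *Zic4* rests on about 5 to 8 fragments. On the log2 scale *Zic4* was -2.04 for PF minus SAG and 3.57 for SAG minus COR, so SAG was the highest. The 2 genes did not keep a fixed ratio between libraries, since *Zic4* over *Zic1* was 2.06 (PF) and 2.21 (COR) but 7.91 in SAG.

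In GENCODE the spans of *Zic1* and *Zic4* overlap on opposite strands over 3398 bases (91257251 to 91260648). The starts of their main coding transcripts are 3159 bases apart and do not overlap, so the overlap comes from other annotated transcripts. Reads in such an overlap cannot be assigned to a gene without strand, and whether counting used strand is not given in the sources used here. The authors counted with another gene model, from Illumina iGenomes, in which this overlap was not checked. The overlap holds 60 bases that are exonic in both genes, which is 1.05% of the exonic bases of *Zic1* and 0.581% of those of *Zic4*, and the main coding transcripts share 0. Their paralogs *Zic2* and *Zic5* were likewise above GP in every suture. *Zic5* was at 2.94 FPKM (PF), 18.0 (SAG), 6.63 (COR), and 0.0711 (GP). *Zic2* was at 2.21, 2.2, 0.767, and 0.0119 FPKM in these libraries. These 4 *Zic* genes were all at 1 FPKM or more in PF and in SAG, 3 were in COR, and 0 were in GP. Their sum was 19.3 FPKM (PF), 68.1 (SAG), 11.2 (COR), and 0.178 (GP), and the leading gene was *Zic5* in COR and *Zic4* in the other libraries.

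*Foxc1* and *Foxc2* encode forkhead factors, each from a gene of 1 exon, and were the most highly expressed of the 10 genes in every library except that *Zic4* exceeded *Foxc2* in SAG and *Sox10* exceeded *Foxc2* in GP. *Foxc1* (chromosome 13, 31898515 to 31902504, plus strand) was at 62.4 FPKM (PF), 47.8 (SAG), 24.4 (COR), and 24.0 (GP). It was above at least 85.3% of all symbols in each library, and its largest difference between libraries, PF over GP, was 2.60-fold in FPKM (1.34 on the log2 scale). *Foxc2* (chromosome 8, 123640071 to 123642792, plus strand) was at 44.7 FPKM (PF), 15.3 (SAG), 8.34 (COR), and 8.22 (GP). COR and GP were nearly equal for both genes, with a log2 difference of 0.02 for each. PF stood out for *Foxc2*, at 2.93-fold over SAG, 5.36-fold over COR, and 5.44-fold over GP in FPKM. *Foxc1* over *Foxc2* was 1.40 in PF, compared with 3.13 (SAG), 2.93 (COR), and 2.92 (GP). The *Foxc2* transcript is rich in G and C (62.1%, above 97.9% of expressed genes), and after a correction of each library for transcript GC content *Foxc2* was at 33.5, 18.7, 8.21, and 9.10 FPKM in PF, SAG, COR, and GP.

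*En1* (chromosome 1, 122498995 to 122505873, plus strand, 2 exons) was at 6.76 FPKM (COR), 1.96 (SAG), 0.966 (PF), and 0.175 (GP). It was the only 1 of the 10 genes with its highest level in COR. COR was 3.45-fold above SAG, 7.0-fold above PF, and 38.6-fold above GP in FPKM, with log2(FPKM + 1) differences of -1.39 for SAG minus COR, -1.98 for PF minus COR, and 2.72 for COR minus GP. All 3 sutures were above GP, where *En1* rests on about 22 fragments. Its paralog *En2* was at 0.242 FPKM in SAG and listed at 0 in the other libraries.

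*Pax3* (chromosome 1, 78097842 to 78193709, minus strand, 8 exons) encodes a paired box factor of the dorsal neural tube, the crest, and muscle and pigment cell precursors. It was at 11.5 FPKM (SAG), 0.185 (COR), 0.161 (GP), and 0.0171 (PF). *Pax3* was thus measured in SAG alone, 61.8-fold over COR and 71.3-fold over GP, and its PF value rests on about 1 fragment, so no ratio over PF is given. The paralog *Pax7* was listed at 0 in all 4 libraries.

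*Sox10* (chromosome 15, 78985343 to 78994920, minus strand, 4 exons) encodes a SoxE factor of crest cells, Schwann cells, and melanocytes. It was at 14.6 FPKM (GP), 6.46 (PF), 2.80 (COR), and 0.650 (SAG). The highest level was therefore in the growth plate, and the lowest was in a suture. GP was 2.26-fold above PF, 5.21-fold above COR, and 22.4-fold above SAG in FPKM, with log2(FPKM + 1) differences of -1.06, -2.04, and -3.24 for the suture minus GP. Among the sutures, PF was 9.93-fold above SAG and 2.31-fold above COR. The *Sox10* transcript is also rich in G and C (61.7%), and with the GC content correction it was at 16.1 FPKM (GP), 4.87 (PF), 2.76 (COR), and 0.792 (SAG), the same order. The other SoxE genes had different orders. *Sox9*, the factor of cartilage, was at 171 FPKM (SAG), 60.8 (GP), 21.3 (PF), and 11.9 (COR). *Sox8* was at 5.37 FPKM (SAG), 2.46 (GP), 2.41 (COR), and 0.0618 (PF).

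**Figure D2:**
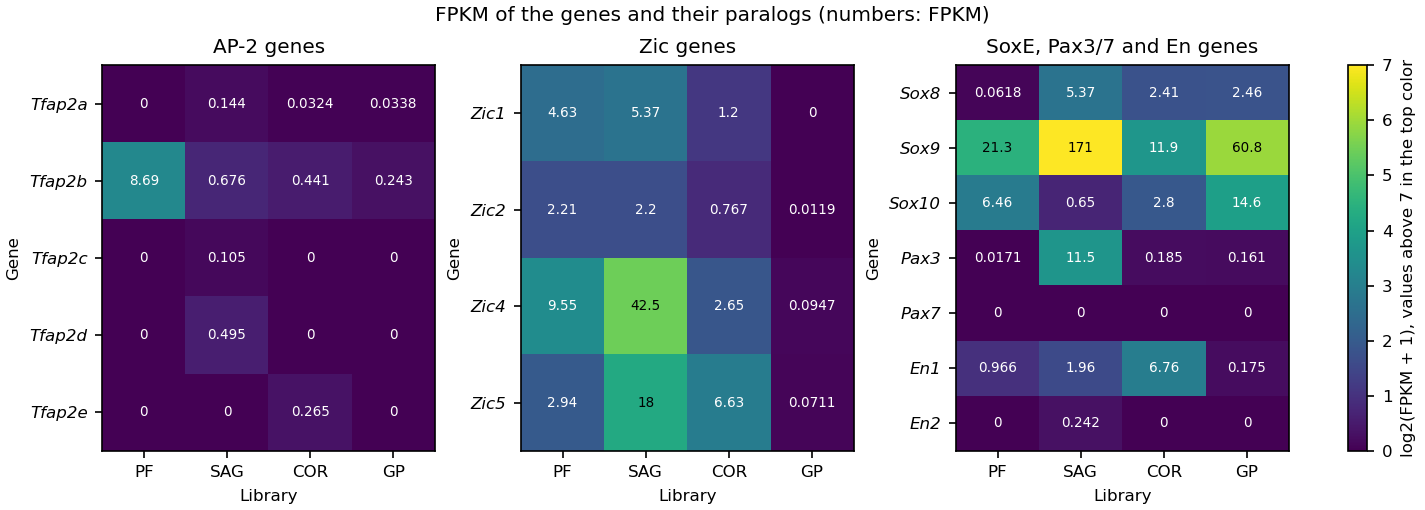
FPKM of the AP-2, *Zic*, SoxE, *Pax3* and *Pax7*, and *En* genes (rows) in the PF, SAG, COR, and GP libraries (columns), with the FPKM printed in each cell and the color giving log2(FPKM + 1). *Tfap2b* in PF is the only AP-2 cell above 1 FPKM, and the 4 *Zic* genes shown are below 1 FPKM in GP.

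The libraries were next compared pair by pair over the 10 genes. A difference of at least 3-fold, 1.58 on the log2(FPKM + 1) scale, was counted where a gene reached 1 FPKM in at least 1 library of the pair. The shares of all genes are of those that passed this filter. Of the 10 genes, 6 passed it for PF and GP, 7 for SAG and GP, and 6 for COR and GP. Between sutures, 8 passed for PF and SAG, 7 for PF and COR, and 7 for SAG and COR. Against GP, 4 of the 10 genes were at least 3-fold higher in PF (*Tfap2b*, *Zic1*, *Zic4*, and *Foxc2*) beside 5.72% of all 13101 genes tested, and 0 were lower, beside 6.24%. In SAG, 3 of the 10 genes were higher than in GP (*Pax3*, *Zic1*, and *Zic4*), beside 4.8% of all genes, and *Sox10* was lower, beside 3.86%. In COR, 2 of the 10 genes were higher than in GP (*Zic4* and *En1*), beside 1.2% of all genes, and *Sox10* was lower, beside 3.2%. The *Zic1* calls rest on a GP value listed at 0, and with such values left out and no pseudocount the numbers were 3 in PF (*Tfap2b*, *Zic4*, and *Foxc2*), 3 in SAG (*Pax3*, *Zic4*, and *En1*), and 2 in COR. These 3 comparisons share the GP library. The median difference over the 10 genes was 1.04 for PF minus GP, 0.89 for SAG minus GP, and 0.03 for COR minus GP, where the median over all genes tested was from 0.02 to 0.03.

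Between sutures, PF and SAG were at least 3-fold apart for 4 of the 10 genes, beside 15.7% of all genes. *Tfap2b* and *Sox10* were higher in PF (6.64% of all genes), and *Pax3* and *Zic4* were higher in SAG (9.04%). With values taken relative to *Gapdh*, *Zic4* no longer passed between PF and SAG, at -1.55, and *Foxc2* passed instead, at 2.0, so the number stayed at 4. PF and COR were apart for 3 of the 10 genes, beside 11.7% of all genes, with *Tfap2b* and *Foxc2* higher in PF (6.81%) and *En1* higher in COR (4.87%). SAG and COR were apart for 2 of the 10 genes (*Pax3* and *Zic4*, both higher in SAG, as were 6.15% of all genes), beside 9.25% of all genes, and 0 were lower in SAG, beside 3.11%. Several other differences lay just under the threshold on this scale, among them *Zic4* for PF minus COR (1.53), *Zic1* for SAG minus COR (1.53), and *Foxc2* for PF minus SAG (1.49). Without a pseudocount the first pair of these passed 3-fold, and PF and COR, and SAG and COR, were then each apart for 5 genes. Most of the calls rest on a library in which the gene is low. Among genes at 1 FPKM or more in both libraries, each pair of sutures was apart for 1 gene, and 1 gene (*Foxc2*) was higher in PF than GP.

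**Figure D3:**
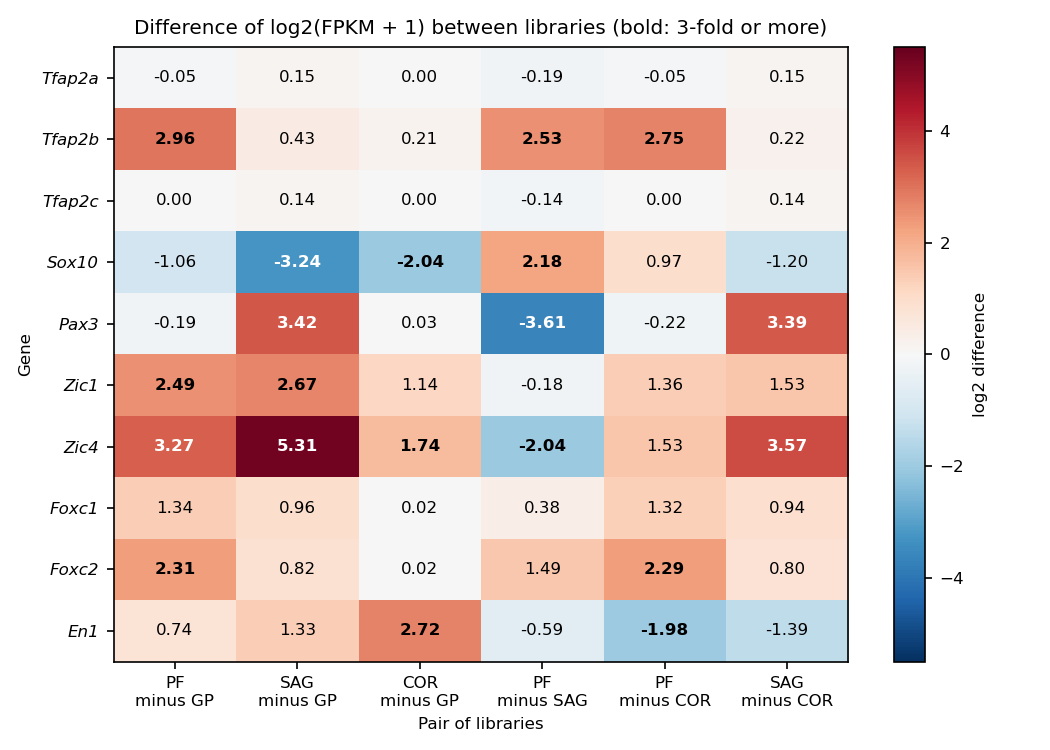
Difference of log2(FPKM + 1) for each of the 10 genes (rows) and each of the 6 pairs of libraries (columns), with red where the first library is higher and blue where it is lower, and bold figures at 3-fold or more. The column COR minus GP holds differences of 0.02 for *Foxc1* and *Foxc2* beside 2.72 for *En1*, and SAG minus GP spans from -3.24 for *Sox10* to 5.31 for *Zic4*.

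**Figure D4:**
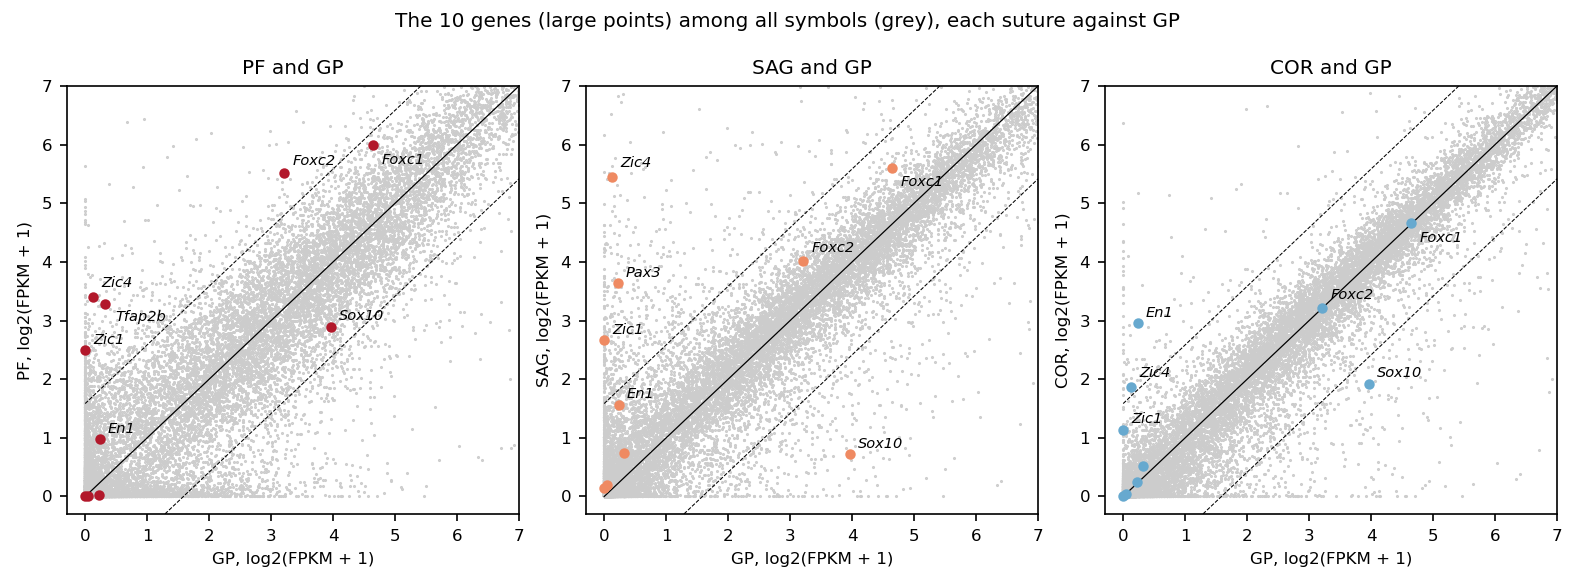
Log2(FPKM + 1) in GP (horizontal axis) against PF, SAG, and COR (vertical axis), with all symbols in grey, the 10 genes as large colored points, the solid line at equality, and dashed lines at 3-fold. Symbols above 7 on either axis lie outside the panels, and genes near the origin carry no name. *Zic4* lies above the upper dashed line in all 3 panels, *Foxc1* and *Foxc2* lie on the line of equality for COR, and *Sox10* lies below the lower dashed line for SAG and COR.

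Only *Zic4* of the 10 genes was at least 3-fold higher in every suture than in GP, which held for 0.257% of all genes (36 of 13998). *Zic1* followed the same order of levels but did not count for COR at 1.14. With a pseudocount of 0.1 the number was 3, as *Zic1* and *En1* then passed too. The highest library was PF for 3 of the 10 genes (*Tfap2b*, *Foxc1*, and *Foxc2*), beside 35.2% of all genes. It was SAG for 5 of the 10, of which *Pax3*, *Zic1*, and *Zic4* were at 1 FPKM or more. That is 3 of the 8 genes at this floor in at least 1 library, beside 28.4% of all genes at the same floor. It was COR for *En1* (19.9%) and GP for *Sox10* (16.4%).

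The genes with both PF and SAG above both COR and GP were also counted. PF and SAG hold bone or mesenchyme of crest origin, and the COR mesenchyme and the skeletal tissue of GP are mesodermal. This grouping is not a clean one, since each complex was cut out with the bone fronts on either side, the dura, and the periosteum. The COR complex thus also takes in frontal bone of crest origin, and the SAG complex takes in parietal bone of mesoderm origin. The order held for 5 of the 10 genes (*Tfap2b*, *Zic1*, *Zic4*, *Foxc1*, and *Foxc2*), beside 18.9% of all genes. With quantile normalization it held for 4, because *Tfap2b* in SAG minus COR went from 0.22 to -0.13. For *Zic1* the order rests in GP on a value listed at 0. The opposite order, with PF and SAG both below COR and GP, was found for 0 of the 10 genes, beside 17% of all genes. The other 5 genes had no such order. *Sox10* was low in SAG and high in GP, *Pax3* was high in SAG and lowest in PF, *En1* was highest in COR, and *Tfap2a* and *Tfap2c* were near 0. For 2 of the 5 genes the lower member of the PF and SAG pair was not far above COR, by 0.22 for *Tfap2b* and 0.80 for *Foxc2* on the log2 scale, and both of these rest on PF for their 3-fold differences. With the SAG library left out, the same 5 genes were higher in PF than in COR and GP, beside 43.3% of all genes with that order, and 7 of the 10 were at 1 FPKM or more in at least 1 of these 3 libraries. The origin of each dissected tissue, its dura, and the depth of its library cannot be told apart with 1 library each.

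Markers of glial cells followed *Sox10* in part. Of 6 genes of a Schwann and glial cell list, 6 were at 1 FPKM or more in GP, 5 in PF and in COR, and 4 in SAG, and 0 were listed at 0 in any library. The sum was 171 FPKM (GP), 150 (PF), 141 (SAG), and 38.1 (COR). At least 3-fold below GP were 2 of the 6 in PF, 3 in COR, and 4 in SAG, beside 6.24%, 3.2%, and 3.86% of all genes. In SAG 1 was higher than in GP, beside 4.8% of all genes. *Mbp*, a myelin protein gene, was at 82.9 FPKM (GP), 88.1 (PF), 13 (COR), and 12.2 (SAG). *Mbp* and *Gfra3*, which encodes a receptor for artemin, thus separated GP and PF from COR and SAG, and *Gfra3* was at 12.3, 22.4, 3.59, and 2.93 FPKM in that order. *Foxd3* ranged from 0.101 FPKM in SAG to 3.88 in GP, and *Cdh19*, a cadherin gene, was also highest in GP, at 4.08 FPKM. *Fabp7* and *S100b* went another way and were highest in SAG, at 67 and 57.8 FPKM. The part of glial cells in the *Sox10* levels was not tested.

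**Figure D5:**
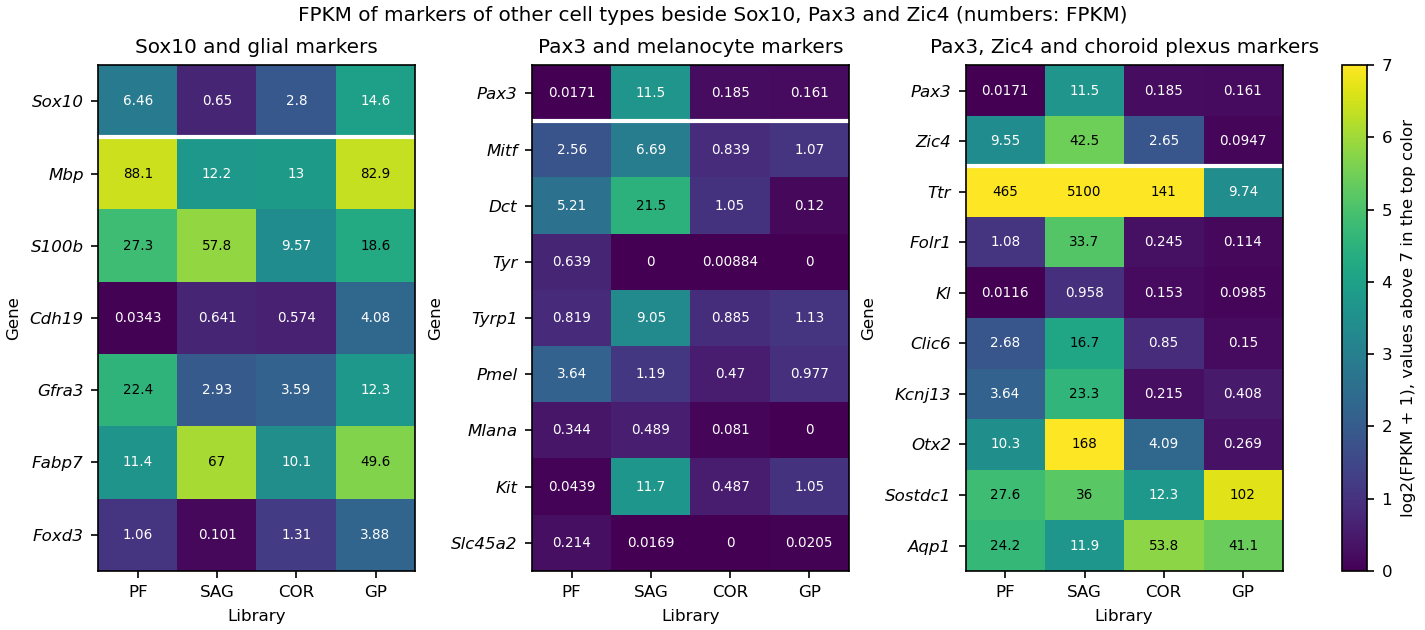
FPKM of *Sox10*, *Pax3*, and *Zic4* (above the white lines) and of the glial, melanocyte, and choroid plexus markers (below them) in the PF, SAG, COR, and GP libraries, with the FPKM printed in each cell and the color giving log2(FPKM + 1). *Mbp* is at 82.9 FPKM in GP and 88.1 in PF, the libraries with the highest *Sox10*, and at 13 or less in COR and SAG. *Cdh19* is instead lowest in PF. Of the 8 choroid plexus markers, 6 are highest in SAG, the library with the highest *Pax3* and *Zic4*.

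Several marker lists moved in part with *Pax3* and *Zic4* in SAG. Of 8 melanocyte markers, 5 were at 1 FPKM or more in SAG, 3 in PF, 1 in COR, and 3 in GP, with sums of 50.6, 13.5, 3.82, and 4.38 FPKM. *Dct* was at 21.5 FPKM in SAG and *Kit* at 11.7, but *Tyr*, the gene of tyrosinase, was listed at 0 there and was at 0.639 FPKM in PF. *Pmel* and *Slc45a2* were also higher in PF, at 3.64 and 0.214 FPKM, than in SAG, at 1.19 and 0.0169. Of 8 choroid plexus markers, 7 were at 1 FPKM or more in SAG and in PF, 4 in COR, and 3 in GP, and *Otx2* was at 168, 10.3, 4.09, and 0.269 FPKM in SAG, PF, COR, and GP. Of 8 neuron markers, 6 were at 1 FPKM or more in SAG and 2 in each other library, with *Neurod1* at 10.9 FPKM in SAG and at or below 0.0702 elsewhere. The neuron sum was nevertheless highest in PF, at 81.2 FPKM against 25.8 (SAG), 22.1 (COR), and 17.2 (GP), where *Gap43* was at 78.8. The part of these cell types in the *Pax3*, *Zic1*, and *Zic4* levels was not tested.

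Meninges are known to express *Foxc1*, *Foxc2*, and *Zic* genes, so their markers are given too. Of 10 meningeal markers, 6 were at 1 FPKM or more in each suture and 4 in GP, with sums of 170 FPKM (PF), 150 (SAG), 53.3 (COR), and 186 (GP), where *Crabp2* alone was at 177. *Aldh1a2*, which makes retinoic acid, was at 62.1 FPKM (PF), 7.09 (SAG), 1.30 (COR), and 1.66 (GP), and so was highest in PF as *Foxc2* and *Tfap2b* were. *Ptgds* was at 12.7, 91.3, 5.73, and 0.081 FPKM in PF, SAG, COR, and GP, the order of *Zic4*. Some markers had other orders. *Crabp2* was at 67.7, 11, 31.9, and 177 FPKM in PF, SAG, COR, and GP. *Slc47a1* was at 12.1, 2.47, 6.73, and 0.185, so both were lower in SAG than in COR. *Bmp7* was highest in SAG, at 35.6 FPKM, and *Gjb2* in PF, at 5.9. *Slc6a13*, *Lama1*, and *Cdh1* were below 1 FPKM in every library, and *Slc22a6* was listed at 0 in all 4 libraries. The part of meningeal cells was not tested. Of the remaining lists, the sums in PF, SAG, COR, and GP were 37.2, 137, 20, and 14.9 FPKM for 8 epidermal markers, with *Krt14* listed at 0 in every suture. They were 4.38, 17.2, 1.62, and 2.02 FPKM for 8 endothelial and lymphatic markers, 34.4, 11.0, 5.55, and 8.20 for 6 leukocyte markers, and 11.1, 0.569, 1.63, and 7.21 for 8 myogenic markers, with *Pax7* and *Myod1* listed at 0 throughout. In each of these lists a single gene gave most of the highest sum. These were *Krt15* (112 FPKM in SAG), *Kdr* (14.9 in SAG), *Lyz2* (30.2 in PF), and *Des* (9.81 in PF).

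The paralogs and 10 other neural crest genes gave the wider setting. Of 8 paralogs, 4 were tested against GP in PF, 4 in SAG, and 3 in COR. In PF 2 were at least 3-fold higher than in GP (*Zic2* and *Zic5*), beside 5.72% of all genes, and 1 was lower (*Sox8*), beside 6.24%. In SAG 2 were higher (*Zic2* and *Zic5*), beside 4.8%. In COR 1 was higher (*Zic5*), beside 1.2%, and 1 was lower (*Sox9*), beside 3.2%. Of the 10 other crest genes, 10 were tested in PF, 9 in SAG, and 9 in COR. In PF 0 were at least 3-fold higher compared with GP, beside 5.72% of all genes, and 1 was lower (*Erbb3*), beside 6.24%. In SAG 1 was higher (*Sox5*), beside 4.8%, and 3 were lower (*Foxd3*, *Ednrb*, and *Erbb3*), beside 3.86%. In COR 0 were higher, beside 1.2%, and 1 was lower (*Ednrb*), beside 3.2%. Their median differences from GP were -0.51 (PF), -0.46 (SAG), and -0.63 (COR). *Snai2*, which encodes a repressor of the epithelial state, was at 50.5, 63.8, 83.5, and 63.0 FPKM in PF, SAG, COR, and GP. *Ednrb*, an endothelin receptor gene, was at 22.2, 9.16, 7.69, and 44.6 FPKM, highest in GP as *Sox10* was. *Ets1* was at 4.34, 19.1, 7.43, and 8.63 FPKM and *Sox5* at 3.46, 13.3, 3.53, and 3.25, both highest in SAG. *Snai1* ranged from 3.52 FPKM in SAG to 6.68 in COR, and *Cdh6* from 1.51 in COR to 7.45 in PF. *Foxd3* (highest at 3.88 FPKM in GP), *Erbb3* (3.94 in GP), *Nes* (2.88 in GP), and *Ngfr* (1.84 in PF) were below 5 FPKM throughout.

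The shape of each gene's profile was then compared with that of 9696 symbols at 5 FPKM or more in at least 1 library, by the Euclidean distance of mean-centred log2(FPKM + 1) over the 4 libraries. With 4 points many symbols lie close by, so the distances are a description. *Foxc1* had 181 symbols within 0.5, the nearest being *Nat14*, *Cyp4f13*, and *4930414L22Rik*. *Tfap2b* had 52, with *Adcyap1*, *Slc35d3*, and *Cited1* nearest. *Foxc2* had 38 (*Ccdc106*, *Gm15698*, and *Car11*) and *Pax3* had 37 (*Odf3b*, *E130309F12Rik*, and *Defb11*). Profiles of the remaining genes were scarcer. *Sox10* had 6 symbols within 0.5, among them *Itgbl1* (0.43) and *Pou3f1* (0.46). *En1* had 0, and its nearest were *Rerg* (0.60), *Bcl11b* (0.73), and *Sncaip* (0.77). *Zic1* had 1, with *Calca* (0.47), *Syp* (0.58), and *Rassf2* (0.60) nearest.

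*Zic4* also had 1 symbol within 0.5, the noncoding gene *Gm5089* (distance 0.39), followed by *Igsf21* (0.74) and *Dbx1* (0.78). *Gm5089* was at 12.4 FPKM (PF), 44.9 (SAG), 3.92 (COR), and 0.0596 (GP). It lies on chromosome 14 (mm9, 122834076 to 122850337, minus strand), on another chromosome than *Zic4* but with 5679 bases between it and *Zic5* (122856017 to 122864899, minus strand), and next to *Zic5* lies *Zic2* (122874604 to 122879074, plus strand). *Gm5089* shares 0 exonic bases with either gene. Among the 10 genes themselves, the nearest profiles were those of *Tfap2b* and *Foxc2* (0.75) and of *Foxc1* and *Foxc2* (0.89), whereas the neighbors *Zic1* and *Zic4* were 1.98 apart.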

How the data were processed

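RNA from sorted cells was reverse transcribed, amplified, and sequenced as paired ends. The authors mapped reads to mouse mm9 with STAR 2.5.1b and ran Cuffdiff of Cufflinks 2.2.1, with R 3.2.2, per the study's methods and processing notes. The gene model for Cuffdiff was that of Illumina iGenomes. Per gene symbol, the authors deposited FPKM values. The library normalization and strand setting of Cuffdiff are not given in the sources used here. Tissues were taken from the sample labels. The genes, gene lists, and marker lists were chosen with earlier results of these data known. The genes named were the 10 genes, their paralogs and 10 other crest genes with values for those at 5 FPKM or more, and the 3 nearest profiles of each gene that reached 5 FPKM. A few genes of these lists are not reported here. A few others were named after their values were seen (*Tfap2d*, *Tfap2e*, *Pax7*, *Zic2*, *En2*, *Foxd3*, *Erbb3*, *Nes*, *Ngfr*, *Col1a1*, and *Sparc*).

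Differences were taken on log2(FPKM + 1), with a pseudocount of 1, and called at 3-fold for genes at 1 FPKM or more in at least 1 library compared. With 1 library per tissue no test was made. FPKM carry no counts. The FPKM of 1 fragment was estimated from the smallest step of low values multiplied by transcript length in kilobases, 0.0579 (PF), 0.025 (SAG), 0.0285 (COR), and 0.0308 (GP), so PF had about 43.2% of the depth of SAG. Of low values, 74.9% to 80.6% lay within 0.2 of a whole fragment, so fragment numbers are approximate, and amplified fragments are not independent molecules. Positions and transcript GC content were those of GENCODE M1 (mm9), and the GC correction was a lowess with a span of 0.3, chosen after seeing the data, on the 93.5% of expressed symbols with a GC value. Scripts ran in Python 3.11.15 (numpy 2.4.6, pandas 2.3.3, statsmodels 0.14.6, matplotlib 3.10.9). The calls were tested on simulated data made from highly expressed genes, with changes well above 3-fold. That check does not cover genes at low levels or changes near the threshold.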

Additional observations from a re-analysis of the deposited data

How the results depend on the processing

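No paired analysis was possible because every group holds a lone library, and for that reason no replicate could be left out. No difference of the 10 genes past 3-fold changed sign under any alternative run, but some smaller ones did, among them *Tfap2b* in SAG minus COR under quantile normalization (-0.13) and *Zic1* in PF minus SAG relative to *Gapdh* (0.27 in place of -0.18). Of the counts recomputed, 93 stayed within 1.5 times of the reported number and 21 did not. With a pseudocount of 0.1 in place of 1, PF and COR were at least 3-fold apart for 5 genes in place of 3, SAG and COR for 5 in place of 2, and every suture was above GP for 3 genes in place of 1. With no pseudocount and genes listed at 0 left out, those numbers were 5, 5, and 2. With a threshold of 2-fold they were 6, 5, and 2. The count of genes higher than GP in every suture was also 2 when each library was rescaled to TPM, and PF and COR were apart for 5 genes relative to *Gapdh*, which was at 281 FPKM (PF), 407 (SAG), 335 (COR), and 389 (GP).

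A filter of 1 FPKM or more in every library compared removed most genes, by its construction: 1 gene stayed higher in PF than GP (in place of 4), 0 in SAG (3), 0 in COR (2), and 0 in every suture (1). It left 1 gene apart between PF and SAG (4), 1 between PF and COR (3), and 1 between SAG and COR (2), and 2 genes (*Foxc1* and *Foxc2*) with PF and SAG above COR and GP (5). With 5 FPKM or more in at least 1 library, 1 gene was higher in COR than GP (in place of 2), and 3 genes reached a floor of 5 FPKM in COR (6 at 1 FPKM). Of the differences of single genes, 378 stayed on their side of the threshold and 30 did not. The median of all genes was moved by over 0.1 by 2 scalings, TPM by -0.28 (PF minus SAG) to 0.19 (SAG minus GP), and *Gapdh* by -0.24 (SAG minus COR) to 0.47 (PF minus SAG). Relative to *Gapdh*, *Zic4* in PF minus SAG fell inside 3-fold (-1.55) and *Foxc2* passed it (2.0). The GC content correction and leaving out SAG, added after the data were seen, kept every count within 1.5 times. For the other settings the cause of a change was not tested. Depth limits *Tfap2a*, *Tfap2c*, *Pax3* outside SAG, and *Zic4* in GP, which rest on few fragments.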
